A study of Mus musculus with 9 samples.

Results

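The genes described here carry the symbols of nuclear subunits of the 5 oxidative phosphorylation complexes of the mitochondrial inner membrane. They were chosen by symbol alone, as every listed gene whose symbol starts with Nduf followed by a, b, c, s or v and a digit, with Uqcr, with Cox and a digit from 4 to 8, or with Atp5, together with Sdha, Sdhb, Sdhc and Sdhd, and without a hyphen. The rule found 84 of 29995 listed genes, with 37 in complex I, 4 in complex II, 8 in complex III, 18 in complex IV and 17 in complex V. Of the 84 genes, 79 passed the filter on low values, which asked for a level of at least 1 TPM, the deposited measure of transcript abundance corrected for length and library size, in at least 3 libraries. The remaining 5, Cox6a2, Cox7b2, Cox8b, Cox8c and Ndufa4l2, did not reach this level in 3 libraries and were not tested.

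Complexes I and II pass electrons from NADH and succinate to ubiquinone, complex III passes them on to cytochrome c, and complex IV reduces oxygen. Complexes I, III and IV pump protons, and complex V, the ATP synthase, uses the resulting gradient to make ATP. Complex II, succinate dehydrogenase, is also an enzyme of the citric acid cycle and is built from nuclear genes alone, whereas the other complexes also hold subunits encoded by mitochondrial DNA. In resting lymphocytes the pathway supplies most ATP, and activated B cells and antibody-secreting plasma cells are known to rely on it as they grow and secrete.

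RNA was sequenced from splenic B-lineage cells of B6.Blimp1GFP/+ mice, whose single reporter allele makes cells that transcribe Prdm1, the Blimp1 gene, fluoresce green. This heterozygous allele was shared by all 3 groups, so that each retained 1 unmodified copy of Prdm1. Mice were 12 weeks old and had received 50 µg of NP-LPS, a hapten joined to bacterial lipopolysaccharide, intraperitoneally 4 days earlier. Each group had 3 libraries, described by the submitters as coming from 3 mice. Naive B cells were sorted as B220+ and IgD high without NP binding, from the same immunized mice, so they are not cells of unimmunized animals. NP-specific B cells (NP+ B cells below) bound NP, carried B220, and lacked IgD, GFP and CD138. Plasma cells bound NP, lacked IgD, carried GFP and CD138, and could have any B220 level. Cells with CD4, CD8a, Ter-119 or F4/80 had been gated out. Which libraries came from one animal is not given in the labels, and the p-values below measure the spread between these libraries.

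The deposited estimates came to between 29000000 and 39300000 reads a library, of which plasma cell libraries kept 20200000 to 22100000 once 322 immunoglobulin (Ig) and related genes had been left out. Summed over 8 B cell markers, TPM was 9545 to 9966 in naive B cells, 6633 to 7163 in NP+ B cells and 1507 to 1583 in plasma cells. Summed over 5 plasma cell markers it was 142 to 167, 175 to 194 and 4811 to 5939. In the B cell groups this was mostly Xbp1 (111 to 127 TPM in naive and 142.5 to 168 TPM in NP+ B cells). Sdc1 (4.33 to 8.48, then 0.093 to 1.48 TPM) and Irf4 (22.8 to 28.55, then 7.12 to 14 TPM) were lower in NP+ B cells. Tnfrsf17 was higher there (0.062 to 0.51, then 5.21 to 18.6 TPM), and Prdm1 overlapped. Unlike the B cell sum, Ms4a1 was higher in NP+ B cells (1114 to 1388 TPM) than in naive B cells (766 to 967 TPM). Plasma cell replicate 3 stood apart, because 9 hepatocyte markers summed to 6469 TPM there, against 65.3 and 65.4 in the other plasma cell libraries and at most 6.73 elsewhere. All 9 of these markers were raised in it, Apoa2 to 2682 TPM and Alb to 661 TPM, and none is at 0 there. Macrophage markers summed to 6.74 to 7.26 TPM in naive B cells, 58.5 to 69.9 in NP+ B cells and 43.9 to 130 TPM for plasma cells. Among NP+ B cells this was mostly Cd68 (44.98 to 67.6 TPM), while C1qa, C1qb and C1qc stayed below 0.1 TPM and reached 7.24, 15.9 and 12.6 TPM in plasma cell replicate 3. T cell markers summed to at most 146 TPM, which in plasma cells was mostly Cd28 (105 to 142 TPM), while Lck was at 49.5 to 56.7 TPM in naive B cells and below 1 TPM in plasma cells. Neutrophil markers stood apart in NP-specific replicate 2 (50.4 TPM, mostly S100a8 and S100a9) and plasma cell replicate 3 (33.7 TPM), against at most 6.998 TPM elsewhere. The part of these transcripts in the results was not tested. The counts of members that rose or fell in plasma cells, and those of the lists of other genes, are therefore given with and without replicate 3, while counts per complex include it. In bulk samples, fewer cells of a type and less RNA per cell cannot be told apart.

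To place the members in the genome, the promoter windows of RefSeq (build GRCm38.p6, 250 bases before to 50 bases after a gene's start) were read for the 69 members listed there. The last 120 bases before the start are shown for 5 members on which the results below turn: Ndufa1 and Ndufs5, the complex I genes with the largest rises in plasma cells, Sdha, the complex II gene that was lower there, and Cox6a1 and Atp5g1, which rose in complexes IV and V. Capitals mark matches, on either strand, to GCGCANGCG (NRF1), CCGGAAG (ETS factors including GABPA), CCAAT (NF-Y) or AAGATGGCG (YY1). All 5 lie on the minus strand and are written 5′ to 3′ in the direction of transcription.
Ndufa1, chrX:37191239-37191358: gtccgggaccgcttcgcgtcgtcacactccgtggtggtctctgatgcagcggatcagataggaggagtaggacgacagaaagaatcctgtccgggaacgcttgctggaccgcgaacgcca
Ndufs5, chr4:123718187-123718306: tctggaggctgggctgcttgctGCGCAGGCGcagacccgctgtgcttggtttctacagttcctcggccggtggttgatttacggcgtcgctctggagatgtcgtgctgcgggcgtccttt
Sdha, chr13:74350241-74350360: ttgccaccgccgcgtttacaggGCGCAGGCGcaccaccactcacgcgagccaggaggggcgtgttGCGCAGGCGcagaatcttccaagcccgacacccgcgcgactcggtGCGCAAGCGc
Cox6a1, chr5:115348959-115349078: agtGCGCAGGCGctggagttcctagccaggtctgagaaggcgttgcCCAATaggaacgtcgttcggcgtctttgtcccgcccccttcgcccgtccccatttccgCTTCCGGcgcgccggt
Atp5g1, chr11:96075632-96075751: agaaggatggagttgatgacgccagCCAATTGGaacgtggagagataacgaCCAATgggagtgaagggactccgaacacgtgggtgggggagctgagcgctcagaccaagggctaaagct

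Over the whole 300-base windows, the NRF1 letters were present in 20 of 69 members (29.0%), against 15.7% of 8857 tested genes with a window and 7.0% of all 27025 windowed genes. The ETS letters were found in 16 members (23.2%), 20.9% of tested genes and 9.9% of all genes. CCAAT, which is short and therefore common, was found in 31 members (44.9%), 43.8% of tested genes and 41.1% of all genes. The YY1 letters were found in 8 members (11.6%), 3.7% of tested genes and 1.6% of all genes. Ndufa1, the member with the largest change, held none of these letters in its window. That window lies wholly before the start that another annotation, GENCODE M21, gives for Ndufa1 (37191163), and sequence at that start was not read. Sdha, which was lower in plasma cells, held the NRF1 letters at 3 places. The 20 members with the NRF1 letters had a median log2 change from naive B cells to plasma cells of 0.69, and the 47 tested members with a window but without them 0.85. The order was the other way from NP+ B cells to plasma cells, at 0.22 with and 0.13 without. For the ETS letters the medians from naive B cells to plasma cells were 1.01 with and 0.74 without. A match is a description of the window and not a bound site.

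Summed over the 84 members, the level was 21861 ± 669 TPM in naive B cells, 34258 ± 401 TPM in NP+ B cells and 44380 ± 2211 TPM in plasma cells (SD, n = 3 each) in the table without Ig genes. These sums made up 2.31%, 3.60% and 4.68% of all listed TPM. The 3 groups did not overlap, with the 9 libraries running from 21128 to 22438, from 33830 to 34625 and from 42335 to 46725 TPM. When Ig genes were kept, the order changed, and plasma cells had the lowest sum: 20464 ± 614, 30653 ± 338 and 12969 ± 933 TPM. The genes left out took 57.5% to 62.3% of listed TPM in plasma cells and 5.63% to 6.96% in the B cell groups. Judged from the factor by which values of the kept genes grew, the part left out was larger. It was then 70.0% to 72.2% in plasma cells and 6.28% to 11.6% in the B cell groups. Members therefore took a larger part of the non-Ig messenger RNA and a smaller part of all messenger RNA in plasma cells, and neither table gives molecules per cell.

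Among the complexes, complex II did not follow the order of the others. In the table without Ig genes, complex I summed to 7369 ± 233, 11288 ± 394 and 16087 ± 798 TPM in naive B cells, NP+ B cells and plasma cells. Complex III summed to 2341 ± 80.4, 3659 ± 37.5 and 5491 ± 397 TPM, and complex V to 6385 ± 165, 10004 ± 43.6 and 12499 ± 576 TPM. Complex IV summed to 5092 ± 224, 8302 ± 185 and 9478 ± 566 TPM. In each of these 4 complexes the groups stood in the same order without overlap. Complex II was highest in NP+ B cells, at 908 to 1095 TPM, lowest in naive B cells, at 666 to 685 TPM, and between them in plasma cells, at 802 to 869 TPM.

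**Figure D1:**
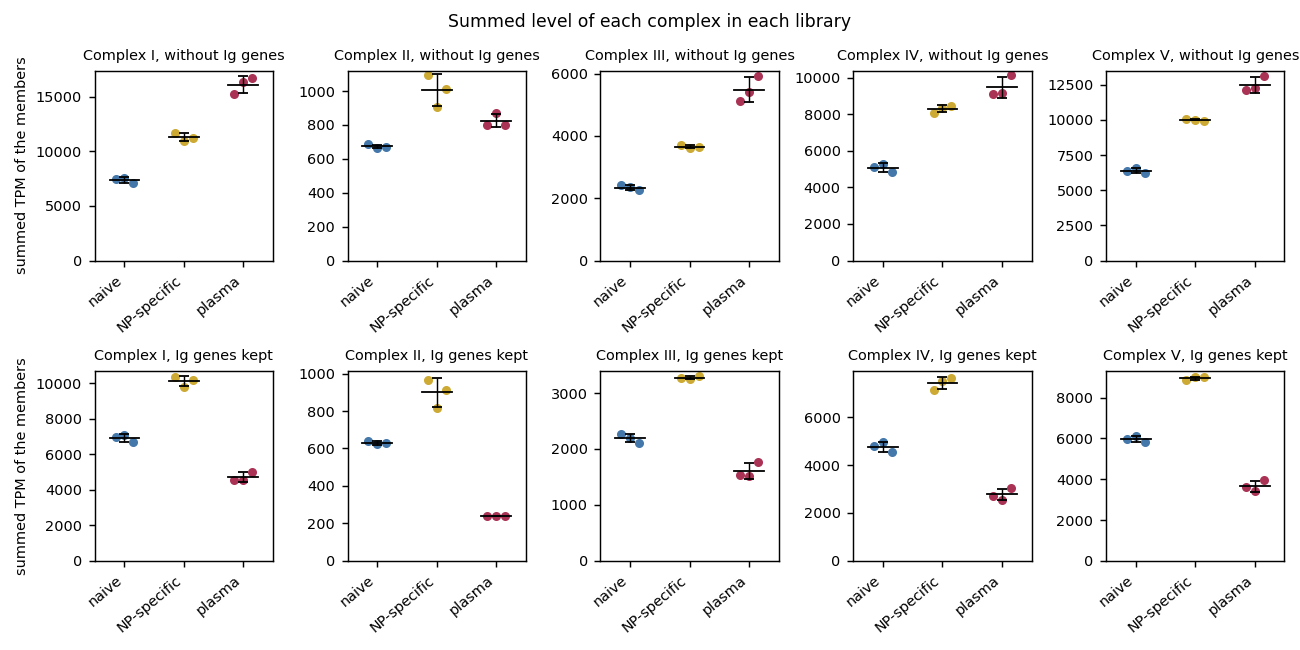
Summed TPM of the members of each complex (vertical axis) in each library, by group (horizontal axis), from the table without Ig genes (upper panels) and from the full table (lower panels). Points are libraries, and horizontal lines and bars are the mean and SD of 3 libraries. Without Ig genes, complex II is highest in NP+ B cells and the other 4 complexes in plasma cells, whereas with Ig genes kept plasma cells are lowest in all 5.

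The share of each complex in the members' own sum does not depend on whether Ig genes are kept, since both tables gave the same shares. Complex II held 3.09% ± 0.11 of it in naive B cells and 2.93% ± 0.24 in NP+ B cells, ranges that overlapped, and 1.86% ± 0.13 in plasma cells, below both (SD, n = 3). Complex III held 10.7% in either B cell group and 12.1% to 12.7% in the plasma cell libraries. Complex I held 33.7% ± 0.08 in naive B cells, 32.9% ± 0.78 in NP+ B cells and 36.3% ± 0.73 in plasma cells, where each library was above the other 6. Complex IV was at 23.3% ± 0.32, 24.2% ± 0.74 and 21.4% ± 0.45, and complex V at 29.2% ± 0.34, 29.2% ± 0.37 and 28.2% ± 0.39. These shares are descriptions of the sums, without a test.

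From naive to NP+ B cells, members of each of the 5 complexes rose. By limma with Benjamini-Hochberg adjustment over all 12892 tested genes, 64 of 79 members rose, 1 fell and 14 did not pass an adjusted p of 0.05. Among all tested genes, 18.6% rose and 23.5% fell. The median log2 change of the members was 0.62, against -0.16 over all tested genes. Those that rose numbered 30 of 36 in complex I, 2 of 4 in complex II, 8 of 8 in complex III, 11 of 14 in complex IV and 13 of 17 in complex V. The medians per complex were 0.54, 0.54, 0.57, 0.72 and 0.62. In 69 members every NP-specific library lay above every naive library, which held for 23.6% of all tested genes.

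The rises in NP+ B cells were mostly below 2-fold. Only 3 members passed an adjusted p of 0.05 together with a fold change over 2, against 8.13% of all tested genes that rose by this measure, and 1 fell by it, against 10.4%. The number that rose was 23 under median-of-ratios scaling, which sets the median gene's ratio between libraries to 1 (12.1% of all tested genes). It was 0 under quantile normalization, which gives the libraries one distribution of values (8.97%), and 7 without NP-specific replicate 2, the library with neutrophil transcripts (9.44%). All 3 that rose are accessory subunits of complex I. Ndufc1 measured 318, 311 and 265 TPM in naive B cells and 668, 592 and 679 TPM in NP+ B cells (log2 change 1.11 ± 0.10, SE, limma adjusted p = 1.8e-05). Ndufb8 measured 358, 406 and 385 TPM, and then 915, 771 and 784 TPM (1.09 ± 0.09). Ndufc2 measured 126, 134 and 129 TPM, and then 258, 264 and 271 TPM (1.02 ± 0.09). For each of these genes the groups did not overlap.

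The member that fell was Atp5sl, which keeps an ATP synthase symbol but is listed as Dmac2 in the reference, a factor known for complex I assembly and not a subunit of complex V. It measured 96.0, 102 and 107 TPM in naive B cells, 46.3, 51.7 and 48.7 TPM in NP+ B cells and 15.7, 13.96 and 16.4 TPM in plasma cells. The groups did not overlap in any comparison. It fell by 1.06 ± 0.10 on the log2 scale from naive to NP+ B cells (limma adjusted p = 2.6e-05) and by 2.70 ± 0.12 from naive B cells to plasma cells (adjusted p = 1.9e-08). This was the largest fall of any member. Atp5s, whose protein is likewise no structural part of the enzyme, was low in all groups and fell in plasma cells, from 8.98, 11.6 and 11.4 TPM in naive B cells and 12.2, 10.7 and 14.7 TPM in NP+ B cells to 6.36, 5.92 and 7.56 TPM (-0.65 ± 0.20 and -0.87 ± 0.20, limma adjusted p = 0.015 and 0.0032). Its call against naive B cells was lost under median-of-ratios scaling, where Atp5sl was the 1 member that fell.

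In plasma cells against naive B cells, 65 members rose, 4 fell and 10 did not pass in the table without Ig genes, but 12 rose and 46 fell of 78 tested when Ig genes were kept, where 6.66% of all tested genes rose and 76.4% fell. The background in the table without Ig genes was 18.2% of tested genes higher and 42.2% lower. The median log2 change was 0.85 for the members and -0.47 for all tested genes, and with Ig genes kept it was -0.38 and -1.40. Members rose in 29 of 36 tested genes of complex I, 3 of 4 of complex II, 7 of 8 of complex III, 11 of 14 of complex IV and 15 of 17 of complex V, with median changes of 0.81, 0.54, 0.91, 0.88 and 0.82. In 69 members each plasma cell library lay above each naive library (21% of all tested genes). Without plasma cell replicate 3, 64 members rose and 5 fell, with a median of 0.81 (18.1% and 39.4% of all tested genes rose and fell). The 5 include Cox6b2, whose plasma cell values then rest on fewer than 3 reads.

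More members passed the 2-fold mark here: 32 rose by over 2-fold (11.4% of all tested genes) and 1 fell by it (26.3%). With Ig genes kept 1 rose and 8 fell by this measure (4.47% and 64.5% of all tested genes). The number that rose was 53 under median-of-ratios scaling (18.7%) and 17 under quantile normalization (16%). Leaving out plasma cell replicate 3 gave 28 that rose and 2 that fell by it (11.8% and 25.9% of all tested genes). The 2 include Cox6b2, which then rests on fewer than 3 estimated reads in each plasma cell library. The 32 comprised 16 of complex I, 1 of complex II, 3 of complex III, 4 of complex IV and 8 of complex V. Those of complex IV include Cox4i2, which passed the filter through plasma cells alone. It is counted there and among the 65 as a description only. A filter at a mean TPM of at least 10 leaves Cox4i2 out. With it 66 members rose (24.4% of all tested genes), 31 of them by over 2-fold (13.4%). Ndufa1, a small accessory subunit of the complex I membrane arm encoded at chrX:37187588-37191163, had the largest change. It measured 438, 413 and 414 TPM in naive B cells, 680, 720 and 673 TPM in NP+ B cells, and 2697, 3036 and 3045 TPM in plasma cells. Every plasma cell library was thus several times above every other, and the log2 change was 2.79 ± 0.08 from naive B cells and 2.08 ± 0.08 from NP+ B cells (limma adjusted p = 5.7e-10 and 4e-09). Both changes passed with Ig genes kept, at 1.56 and 0.87. In plasma cells Ndufa1 had the highest level of all members, whereas in both B cell groups that member was Atp5b.

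Ndufs5, another accessory subunit of complex I, measured 203, 219 and 223 TPM in naive B cells, 379, 341 and 343 TPM in NP+ B cells and 799, 863 and 859 TPM in plasma cells. The 3 groups did not overlap, and the change from naive B cells to plasma cells was 1.96 ± 0.08 on the log2 scale (limma adjusted p = 9e-09). Of the 31-base words in its transcripts, 26.5% also occur in BC002163, so its reads could have been divided between the copies. Ndufb11, Ndufs6, Ndufc1 and Ndufb9 changed by 1.54, 1.50, 1.48 and 1.48. Ndufa4 changed by 1.76 ± 0.38, but its libraries differed widely within groups, at 59.8, 90.2 and 30.3 TPM, 59.0, 118 and 101 TPM, and 164, 279 and 144 TPM. Its call was lost with Ig genes kept (0.55, limma adjusted p = 0.22). Ndufa4 carries a complex I symbol, although its protein is now placed with complex IV.

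In complex I, the core and the accessory subunits had different median changes. The 7 nuclear core subunits, which carry the flavin and the iron-sulfur clusters that move electrons, had a median log2 change of 0.36 in NP+ B cells and 0.27 in plasma cells, both against naive B cells. The other 29 tested members of complex I had medians of 0.65 and 1.00. Without Ig genes, 4 core genes rose in NP+ B cells and 3 in plasma cells, and the others did not pass. The shares of all tested genes that rose were 18.6% and 18.2%. Ndufs1, the largest core subunit, measured 69.5, 79.6 and 86.4 TPM in naive B cells, 96.4, 87.8 and 95.9 TPM in NP+ B cells and 94.4, 94.2 and 77.6 TPM in plasma cells. Its naive and plasma cell libraries overlapped, and the change of 0.17 ± 0.12 did not pass the test (limma adjusted p = 0.24). Ndufs7 (0.12 ± 0.09) and Ndufv1 (0.27 ± 0.12) did not pass either, while Ndufs3 changed by 1.02 ± 0.09 in plasma cells, or by -0.20 with Ig genes kept, which did not pass (limma adjusted p = 0.0575). The other 3 also depended on the scaling in sign. Ndufs1, Ndufs7 and Ndufv1 were lower with Ig genes kept (-1.03, -1.10 and -0.94) and higher under median-of-ratios scaling (0.69, 0.63 and 0.79), each past the test by limma. Ndufs1 passed in 5, Ndufs7 in 2 and Ndufv1 in 8 of 21 alternatives, the last also without NP-specific replicate 1 or 2 (limma adjusted p = 0.0244 and 0.0408).

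**Figure D2:**
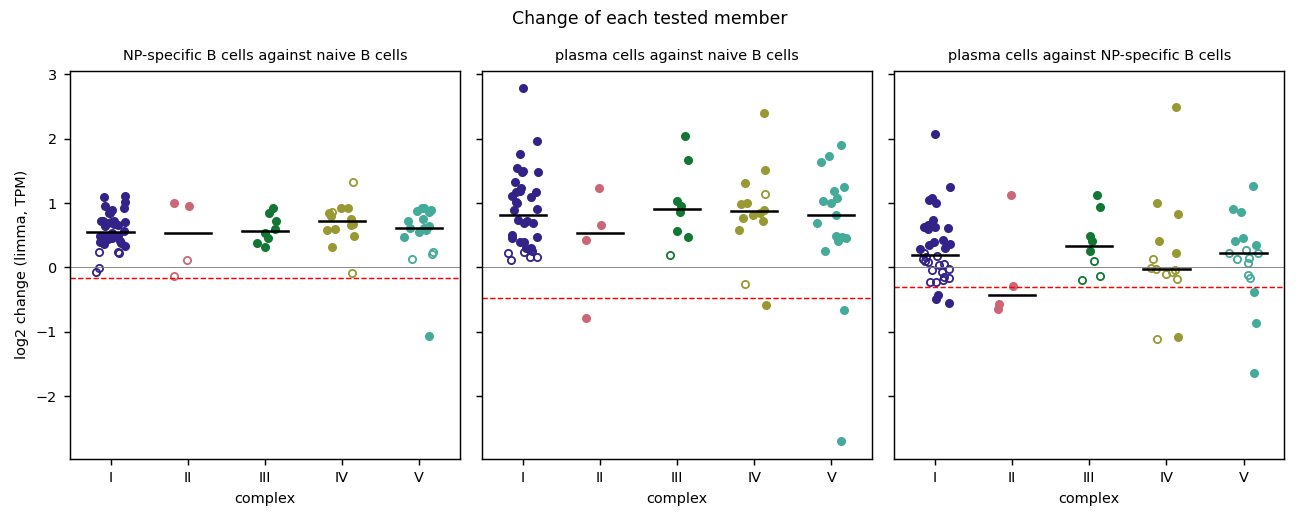
Log2 change of each tested member (vertical axis) by complex (horizontal axis) in the 3 comparisons, from the table without Ig genes. Filled points passed an adjusted p of 0.05, open points did not, black lines are the median of each complex and the dashed line is the median of all 12892 tested genes. Complex II is the 1 complex whose median in plasma cells against NP+ B cells, -0.44, lies below the median of all genes, -0.30.

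Complex II held genes that moved in opposite directions. Sdha, the flavoprotein that oxidizes succinate, measured 269, 246 and 271 TPM in naive B cells, 261, 229 and 227 TPM in NP+ B cells and 164, 163 and 133 TPM in plasma cells. All 3 plasma cell libraries were below the other 6, and the change from naive B cells was -0.78 ± 0.11 on the log2 scale (limma adjusted p = 9.9e-05). Under median-of-ratios scaling, which moved the median of all genes by 0.52, this change was -0.26 (adjusted p = 0.111).
Sdhb, the iron-sulfur subunit, measured 230, 230 and 209 TPM, then 501, 381 and 432 TPM, and then 346, 395 and 324 TPM in the same order. It was 0.96 ± 0.12 higher in NP-specific than in naive B cells, and its NP-specific and plasma cell libraries overlapped. The difference between those groups, -0.30 ± 0.11, passed narrowly (limma adjusted p = 0.049) and was lost in 15 of 21 alternatives, among them those without NP-specific replicate 1 or 3 or plasma cell replicate 1 or 3 (-0.19 to -0.30). Sdhd, which with Sdhc anchors the enzyme in the membrane and binds ubiquinone, measured 128, 131 and 135 TPM, then 272, 236 and 286 TPM, and then 168, 176 and 186 TPM. Sdhd therefore peaked in NP+ B cells, without overlap between groups, and was 0.58 ± 0.09 lower in plasma cells than in NP+ B cells (limma adjusted p = 0.00038). Under median-of-ratios scaling that difference was -0.30 and did not pass (adjusted p = 0.0676).
Sdhc behaved differently from Sdhd, its partner in the anchor. It measured 57.9, 59.7 and 56.8 TPM in naive B cells, 60.4, 62.9 and 66.8 TPM in NP+ B cells, and 123, 135 and 159 TPM in plasma cells. The groups did not overlap, and plasma cells were 1.24 ± 0.11 above naive B cells and 1.13 ± 0.11 above NP+ B cells, while the difference between the B cell groups, 0.11 ± 0.12, did not pass the test. With Ig genes kept, Sdhc in plasma cells differed by 0.028 from naive B cells and by -0.074 from NP+ B cells, neither of which passed, and Sdhb and Sdhd were lower in plasma cells.

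In complex III, all 8 members rose in NP+ B cells and 7 rose in plasma cells, both against naive B cells with Ig genes left out. The corresponding shares of all tested genes were 18.6% and 18.2%. The complex III median turned with Ig genes kept, to -0.31 in plasma against naive B cells and -0.88 in plasma against NP+ B cells. Uqcrq, a small subunit beside cytochrome b, measured 375, 378 and 341 TPM in naive B cells, 760, 662 and 668 TPM in NP+ B cells and 1379, 1422 and 1748 TPM in plasma cells. Its groups did not overlap, and the change in plasma cells was 2.04 ± 0.11 (limma adjusted p = 4.9e-08). Uqcr11 changed by 1.67 ± 0.10. When Ig genes were kept these changes were 0.82 and 0.45. The 5 small subunits had a median change of 0.96 in plasma cells. Uqcrfs1, the Rieske iron-sulfur protein, changed by 1.03 ± 0.08, and of the 2 core proteins Uqcrc2 changed by 0.47 ± 0.12, while Uqcrc1, at 0.19 ± 0.14, did not pass (limma adjusted p = 0.254). Uqcrc1 measured 135, 126 and 138 TPM in naive B cells and 145, 184 and 134 TPM in plasma cells, and these libraries overlapped.

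In complex IV, 6 ubiquitous isoforms have a tissue-restricted counterpart. All 6 rose from naive B cells to both other groups without Ig genes, as did 18.6% and 18.2% of all tested genes. The medians of the 6 were 0.68 and 0.86. With Ig genes kept, 4 of them were lower in plasma cells than in naive B cells, Cox4i1 (-0.45), Cox6b1 (-0.32), Cox7b (-0.40) and Cox8a (-0.64), and under quantile normalization Cox6a1 did not pass in NP+ B cells (0.13, limma adjusted p = 0.163). Cox4i1, a nuclear subunit that takes part in regulating the enzyme, measured 716, 722 and 661 TPM in naive B cells, 1227, 1208 and 1229 TPM in NP+ B cells, and 1175, 1189 and 1226 TPM in plasma cells. The naive libraries lay below the others, which overlapped (0.80 ± 0.07 and 0.77 ± 0.07 against naive B cells). Cox7a2 and Cox6a1 rose by 1.51 ± 0.09 and 1.31 ± 0.07 from naive B cells to plasma cells. When Ig genes were kept, these changes were 0.29 and 0.091, of which that of Cox6a1 did not pass (limma adjusted p = 0.354), and against NP+ B cells Cox7a2 was then lower in plasma cells (-0.38, adjusted p = 0.00776). Cox7a2l, whose protein has been linked to supercomplexes of complexes III and IV, went the other way. It measured 190, 192 and 184 TPM in naive B cells, 287, 254 and 264 TPM in NP+ B cells and 124, 126 and 129 TPM in plasma cells. It thus rose by 0.50 ± 0.08 in NP+ B cells and was lower in plasma cells than in either B cell group without overlap (-0.58 ± 0.09 against naive B cells and -1.08 ± 0.08 against NP+ B cells, limma adjusted p = 0.00015 and 1.4e-06). Under median-of-ratios scaling the former was -0.065 (adjusted p = 0.679).

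The tissue isoforms of complex IV were low in all 9 libraries. The 7 isoform genes known from muscle, lung or testis summed to 3.44 to 18.1 TPM in a library, which was 0.083% to 0.32% of their sum with the 6 ubiquitous isoforms. Cox4i2, the lung and hypoxia isoform, measured 0.077, 0.073 and 0.34 TPM in naive B cells, 0.13, 0.25 and 0 TPM in NP+ B cells, and 3.78, 1.92 and 3.57 TPM in plasma cells. These plasma cell values rest on 36.0, 18.7 and 33.7 estimated reads, and those of the B cell libraries on 0 to 4. Because Cox4i2 passed the filter through plasma cells alone, its difference is given as a description, and the log2 change against naive B cells ran from 1.79 to 4.25 over the alternatives. Cox6b2, a testis isoform, measured 0.65 and 0.32 TPM in plasma cell replicates 1 and 2 and 6.51 TPM in replicate 3, the library with hepatocyte transcripts. The former pair rest on 2.9 and 1.4 estimated reads, below 3, against 7.2 to 14 in naive B cells, and no fold change is given without replicate 3. With it the log2 change from naive B cells was -0.26 (limma adjusted p = 0.746). Cox8b stayed below 3 reads in all 9 libraries, and Cox6a2, Cox7b2, Cox8c and Ndufa4l2 reached at most 19.6 reads in any.

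In complex V, parts of the enzyme differed in the size of their change in plasma cells. The 5 subunits of the catalytic F1 head had a median log2 change of 0.61 in NP+ B cells and 0.47 in plasma cells, both against naive B cells. Atp5b, the catalytic beta subunit, measured 1000.2, 972 and 1053 TPM in naive B cells, 1635, 1385 and 1520.4 TPM in NP+ B cells and 1359, 1381 and 1314 TPM in plasma cells. The naive libraries lay below all others, and the changes were 0.58 ± 0.08 and 0.42 ± 0.08. The change in plasma cells depended on the scaling, at -0.80 with Ig genes kept (limma adjusted p = 1.16e-05) and 0.20 under quantile normalization (adjusted p = 0.126). Quantile normalization also ended the calls of Atp5a1 (0.056) and Atp5c1 (0.057) in plasma against naive B cells and turned Atp5d (-0.12). Atp5e, the remaining F1 gene, rose by 1.03 ± 0.10 in plasma against naive B cells (limma adjusted p = 6.55e-06). This lies within the range of the peripheral stalk genes named next (0.82 to 1.25). With Ig genes kept Atp5e was at -0.19, which did not pass. The 4 genes of the peripheral stalk, Atp5f1, Atp5h, Atp5j and Atp5o, had medians of 0.83 and 1.04, and the 3 membrane subunits Atp5j2, Atp5k and Atp5l 0.87 and 1.20. With Ig genes left out, each of these 7 rose in both comparisons with naive B cells, where 18.6% and 18.2% of all tested genes rose.

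The ring of c subunits, through which protons pass, is encoded by 3 genes that make the same mature protein. Atp5g1 measured 300, 303 and 274 TPM in naive B cells, 434, 474 and 463 TPM in NP+ B cells and 1091, 1022 and 1190 TPM in plasma cells. Its groups did not overlap, and it was 1.90 ± 0.09 higher in plasma than in naive B cells (limma adjusted p = 1.7e-08). Atp5g3 changed by 1.64 ± 0.10 and Atp5g2 by 0.46 ± 0.15. The share of Atp5g1 in the sum of the 3 genes was 33.0% ± 1.3 in naive B cells, 33.6% ± 1.3 in NP+ B cells and 41.5% ± 1.4 in plasma cells, where each library was above each B cell library. The share of Atp5g2 was 19.5% ± 0.35, 15.1% ± 2.2 and 9.02% ± 0.99, without overlap between the groups. That of Atp5g3 stayed between 45.7% and 52.7% in all libraries. Atp5g2 shares 40.2% of its 31-base words with other annotated genes, so its level is uncertain. Its call in plasma cells was lost without naive replicate 3 (log2 change 0.40) or without plasma cell replicate 1 (0.43) or 2 (0.44). Quantile normalization ended it too (0.32, limma adjusted p = 0.182).

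**Figure D3:**
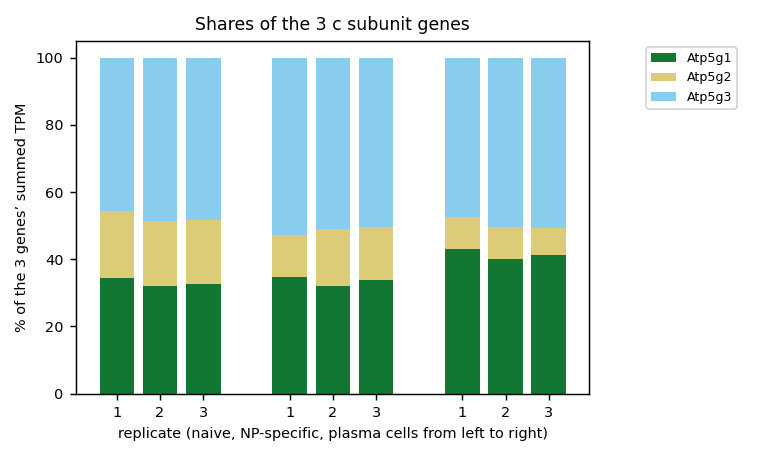
Share of Atp5g1, Atp5g2 and Atp5g3 in their summed TPM (vertical axis, percent) in each of the 9 libraries (horizontal axis, by group). Atp5g2 takes 19.1% to 19.8% in naive B cells and 7.89% to 9.65% in plasma cells, and Atp5g1 at least 40.1% in plasma cells against at most 34.6% in the B cell groups.

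Between NP+ B cells and plasma cells, which share their antigen specificity, the direction of the members depended on the Ig genes. With these genes left out 34 rose, 10 fell and 35 did not pass, where 15.7% of all tested genes rose and 38.1% fell. With them kept 1 rose and 68 fell, where 5.15% of all tested genes rose and 71% fell. The median log2 change was 0.17 for the members and -0.30 for all tested genes, or -1.04 and -1.27 with Ig genes kept. Under quantile normalization the medians were 0.092 and 0.0016, and 26 members rose and 16 fell (24.1% and 26.4% of all tested genes). Of the members, 17 rose and 3 fell in complex I, 1 rose and 3 fell in complex II, 5 of 8 rose in complex III, 5 rose and 1 fell in complex IV, and 6 rose and 3 fell in complex V. The medians were 0.20, -0.44, 0.33, -0.02 and 0.22. In 40 members each plasma cell library lay above each NP-specific library (17.3% of all tested genes). Without plasma cell replicate 3, 31 rose and 10 fell (15.3% and 34.9%), among the latter Cox6b2, whose plasma cell values then rest on fewer than 3 reads.

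By over 2-fold, 9 members rose from NP+ B cells to plasma cells (9.93% of all tested genes) and 2 fell (22.3%). With Ig genes kept 0 rose and 40 fell by this measure (3.41% and 59.7% of all tested genes). Under median-of-ratios scaling 15 rose and 1 fell (13.8% and 16.1%), and under quantile normalization 6 rose and 1 fell (13.9% and 14.3%). Without plasma cell replicate 3, 8 rose and 3 fell (10% and 21.4%). The 3 include Cox6b2, which then rests on fewer than 3 estimated reads in each plasma cell library. The 9 were Ndufa1, Ndufs5, Ndufa4, Ndufb11, Ndufs6, Sdhc, Uqcrq, Atp5g1 and Cox4i2, the last of which passed the filter through plasma cells alone, and the 2 were Atp5sl and Cox7a2l. The changes of Ndufs5 and Atp5g1 were 0.041 and 0.060 with Ig genes kept and did not pass. The call for Ndufa4 was lost without NP-specific replicate 1 or plasma cell replicate 2. Members that fell by less included Ndufa8, Ndufc2 and Ndufv2 of complex I (-0.50, -0.55 and -0.42) and Atp5c1, the gamma subunit at the axle of the ATP synthase (-0.39). Each of these 4 had risen from naive to NP+ B cells. Under median-of-ratios scaling the falls of Ndufc2 (-0.27), Ndufv2 (-0.15) and Atp5c1 (-0.11) did not pass (limma adjusted p = 0.0996, 0.364 and 0.489). The 3 comparisons share their libraries and are therefore not independent of each other.

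**Figure D4:**
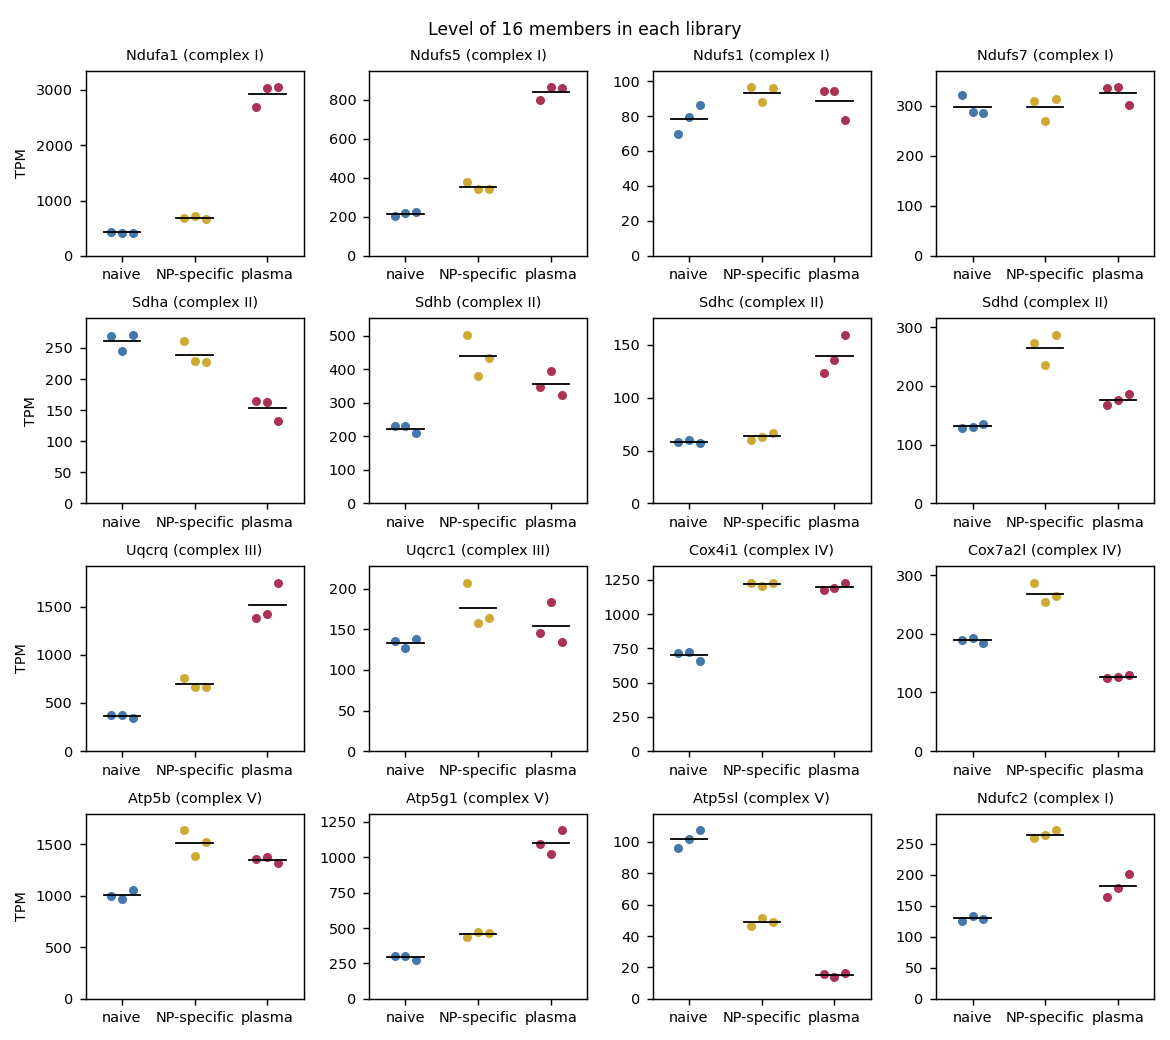
Level in TPM (vertical axis, starting at 0) of 16 members in each library of the 3 groups (horizontal axis), from the table without Ig genes. Points are libraries and lines are means of 3. Ndufa1, Ndufs5, Uqcrq, Atp5g1 and Sdhc are highest in plasma cells without overlap, Sdhd, Ndufc2 and Cox7a2l in NP+ B cells, and Atp5sl in naive B cells.

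Some subunits are made inside mitochondria. Of the 13 mitochondrially encoded subunits, 12 were tested, and mt-Atp8 was listed at 0 in all libraries. Against naive B cells, 3 fell and 9 did not pass in NP+ B cells, and likewise in plasma cells, by limma. Of all tested genes, 23.5% and 42.2% fell in these comparisons. In plasma cells, however, 12 fell with Ig genes kept (76.4% of all tested genes), 1 rose under median-of-ratios scaling and 2 fell without plasma cell replicate 3. Their summed level varied widely between libraries, at 34184, 43225 and 49229 TPM in naive B cells, 22294, 50868 and 40566 TPM in NP+ B cells, and 34168, 34557 and 33753 TPM in plasma cells. The groups overlapped. Divided by the summed level of the 84 nuclear members, which does not depend on whether Ig genes are kept, the ratio was 1.55 to 2.33 in naive B cells, 0.644 to 1.50 in NP+ B cells and 0.722 to 0.807 in plasma cells. Naive B cells were thus above both other groups without overlap. mt-Nd2 was 0.99 ± 0.30 lower in NP+ B cells and 1.04 ± 0.30 lower in plasma cells than in naive B cells (limma adjusted p = 0.023 and 0.0123). Under median-of-ratios scaling neither change passed (-0.75 and -0.52, adjusted p = 0.0758 and 0.19).

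Other genes of the pathway were counted from lists. Among all tested genes 18.6% rose and 23.5% fell in NP+ B cells and 18.2% rose and 42.2% fell in plasma cells, both against naive B cells, and 15.7% rose and 38.1% fell from NP+ B cells to plasma cells. Of 10 further subunits and electron carriers, among them Cycs, Cyc1 and the electron transfer flavoproteins Etfa and Etfb, 8 rose and 1 fell in NP+ B cells and 10 rose in plasma cells, both against naive B cells. Cycs, the cytochrome c that shuttles electrons to complex IV, was 0.90 ± 0.12 and 1.53 ± 0.12 higher. With Ig genes kept the change of Cycs in plasma cells was 0.31 (limma adjusted p = 0.0483). Of 43 tested assembly factors, 16 rose and 4 fell in NP+ B cells, while in plasma cells 8 rose and 17 fell, with medians of 0.27 and -0.25. Of 77 mitochondrial ribosomal proteins, which build the machinery for the mitochondrially encoded subunits, 52 rose and 1 fell in NP+ B cells and 28 rose and 14 fell in plasma cells. From NP+ B cells to plasma cells 3 assembly factors rose and 21 fell, and 16 mitochondrial ribosomal genes rose and 40 fell. The plasma cell counts of these lists depended on the scaling, in alternatives chosen after seeing the data. Against naive B cells, with Ig genes kept, 1 carrier or further subunit rose and 5 fell, 37 of 43 assembly factors fell, and 3 ribosomal genes rose and 61 fell, where 6.66% of all tested genes rose and 76.4% fell. Under median-of-ratios scaling 17 assembly factors rose and 6 fell, and 52 ribosomal genes rose and 2 fell, where 27.9% of all tested genes rose and 22.3% fell. When plasma cell replicate 3 was left out, the 10 carriers and further subunits rose, 7 assembly factors rose and 15 fell, and 29 ribosomal genes rose and 13 fell. The counts from NP+ B cells to plasma cells were then 3 and 18 assembly factors and 15 and 37 ribosomal genes.

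The 14 tested transcriptional regulators include Tfam, Tfb1m, Tfb2m and Polrmt, which act inside mitochondria and not on the nuclear members. Of the 14, 1 rose and 10 fell in plasma cells against naive B cells by limma. Among all tested genes 18.2% rose and 42.2% fell. The median log2 change of the 14 was -1.14, and the counts were the same without plasma cell replicate 3. When Ig genes were kept, 13 fell (76.4% of all tested genes). Under median-of-ratios scaling 1 rose and 7 fell (27.9% and 22.3% of all tested genes), and under quantile normalization 2 rose and 7 fell (25.9% and 27.9%). Tfam, which packages and transcribes mitochondrial DNA, measured 118, 90.5 and 98.8 TPM in naive B cells, 83.8, 92.6 and 96.7 TPM in NP+ B cells and 37.2, 38.0 and 38.9 TPM in plasma cells. Its plasma cell libraries lay below all others (-1.42 ± 0.13, adjusted p = 3.8e-06). Nrf1, whose letters were searched in the promoters above, changed by -1.29 ± 0.16, Esrra by -2.55 ± 0.28 and Myc by -2.49 ± 0.18. Gabpa, at -0.08 ± 0.15, did not pass. It was 0.43 under median-of-ratios scaling, which did not pass, higher under quantile normalization (0.42, adjusted p = 0.0213) and lower with Ig genes kept (-1.22, adjusted p = 2.71e-05) by limma. Tfb1m, a methyltransferase of mitochondrial ribosomal RNA, was the regulator that rose, by a log2 change of 1.25 ± 0.15, and with Ig genes kept by 0.086, which did not pass. In NP+ B cells 1 regulator rose, Myc (0.62 ± 0.13), and 4 fell, among them Esrra (-0.71 ± 0.22), where 18.6% of all tested genes rose and 23.5% fell. The call for Esrra was lost under median-of-ratios scaling (-0.47, limma adjusted p = 0.0937).

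Across members, the change in plasma cells went with transcript length. The number of estimated reads behind 1 TPM, which stands for the effective length the authors used, was correlated with the log2 change from naive B cells to plasma cells at r = -0.51 over 76 members above 1 TPM in all libraries. The same correlation was -0.31 for NP+ B cells against naive B cells and -0.46 for plasma cells against NP+ B cells. With annotated length over all 79 tested members it was weaker, at -0.39, -0.26 and -0.31 in the same order. For the reads behind 1 TPM, the correlation over 9395 genes of any function was -0.18, -0.16 and -0.09, again in that order. These are descriptions over genes of the same 9 libraries, with no test. By the annotated length in GENCODE M21, the 35 tested members with a median transcript below 700 bases fell into classes with median changes in plasma cells of 0.99 (12 genes under 500 bases) and 1.01 (23 genes from 500 to under 700). The 17 members from 700 to under 1000 bases had a median of 0.77, the 21 from 1000 to under 2000 bases 0.47, and the 6 of 2000 bases and over 0.33. Among all tested genes the corresponding medians were 0.25, 0.15, -0.052, -0.32 and -0.59. Among tested genes with a mean TPM of at least 100 they were 0.46, 0.26, 0.13, -0.02 and -0.37. The members' median was above both in each class of this comparison. In NP+ against naive B cells the genes at this level had medians of 0.38, 0.32, 0.43, 0.34 and 0.11. From NP+ B cells to plasma cells the class under 500 bases had medians of 0.277 for members and 0.265 for all tested genes. Annotated length and the reads behind 1 TPM differed for some members. Atp5g1 (2675.5 bases, log2 change 1.90) and Ndufb2 (2413 bases, 1.24) had 0.25 and 0.19 times the reads of the median gene. Ndufa11 (545 bases, 1.11) had 1.27 times. Many accessory subunits have short transcripts, and the part of length in their changes was not tested.

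**Figure D5:**
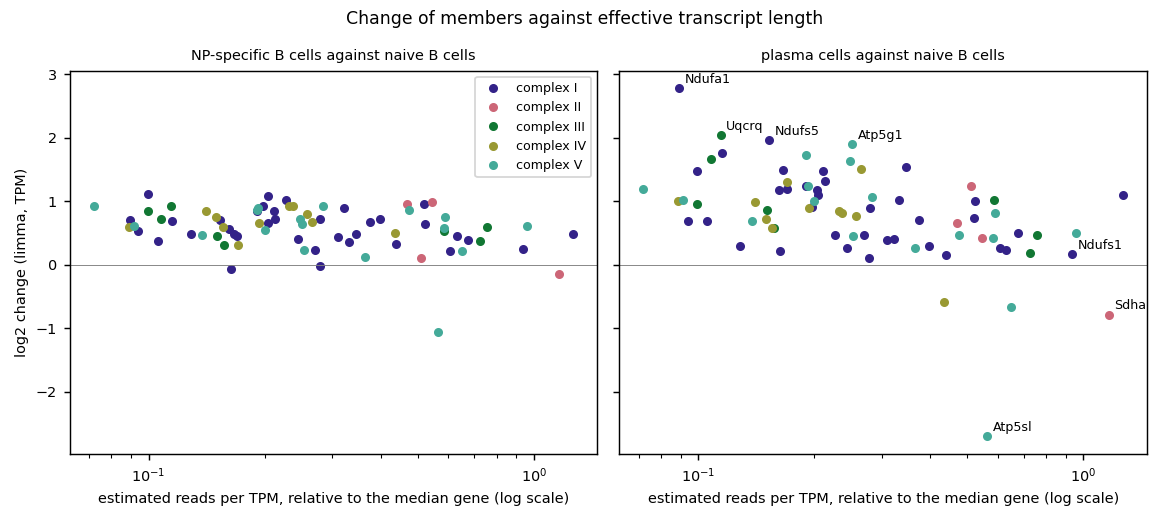
Log2 change of the 76 members above 1 TPM in all libraries (vertical axis) against the estimated reads behind 1 TPM relative to the median gene (horizontal axis, log scale), coloured by complex. Ndufa1, Uqcrq and Ndufs5, with short transcripts, have the largest changes in plasma cells, and Ndufs1 and Sdha, with long ones, small or negative changes.

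The identity of some members is uncertain at the level of reads. In GENCODE M21, 11 of 84 members share at least 20% of their 31-base words with other annotated genes: Atp5o (49.3%, mostly with Donson), Atp5g2, Uqcrb, Ndufb6, Ndufa13, Ndufb11, Ndufs5, Atp5h, Ndufs3, Cox7c and Ndufa12. A further 43 share under 5%, among them Ndufa1 (2.1%) and Ndufa4 (2.2%), and 20 of these share none, among them Sdha, Sdhb, Sdhd, Uqcrq, Cox4i2 and Atp5sl. Reads of genes that share sequence may have been split between the copies in the estimates.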

How the data were processed

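The members and lists described here were chosen with earlier results of these data known. Per the labels and the study's methods, cDNA was made from polyadenylated RNA by template switching and libraries by tagmentation, and the authors estimated transcript abundance with kallisto (mm10 per the submitters' processing notes; the transcript annotation is not given in the sources used here). The TPM values were deposited by the authors per gene symbol, with and without 322 Ig and related genes. Values of the kept genes were 1.07 to 3.60 times higher in the table without them. The log2 values were made by the authors with voom from the same estimates; they were used to recover estimated reads, which stood in a fixed ratio to TPM for each gene in all libraries, so their precision cannot be read as that of raw counts.

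From the TPM table without Ig genes, limma 3.58.1 (R 4.3.3) with voom weights (offset 0.5, library size the column sum) was fitted to all 9 libraries with 3 group means, for genes with at least 1 TPM in at least 3 libraries. P-values were adjusted over all 12892 genes by Benjamini and Hochberg. Calls used an adjusted p under 0.05, alone or with a fold change over 2. Members were named by a rule: the largest rise and fall per complex and comparison, those past both thresholds (up to 12 in each direction), complex II, the complex I core, F1, c subunit and complex IV isoform genes, and the highest member of each complex. Members named beyond it were chosen after their values were seen, as were Ndufb9 and the regulators. Alternatives were the block, other scalings, filters, offsets and inputs, and leaving out each library. Reads under 3 were taken as the detection limit. Correlations between libraries of the same replicate number ran from -0.0749 to 0.0675. With 3 libraries per group they cannot show whether such libraries came from the same mouse.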

Additional observations from a re-analysis of the deposited data

How the results depend on the processing

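In the plasma cell comparisons the choice with the largest effect was the Ig genes. With Ig genes kept, which moved the median of all genes by -0.93 in plasma against naive B cells and by -0.97 in plasma against NP+ B cells, the former gave 12 members higher, 46 lower and 9 past both thresholds, with a median of -0.38, and the latter 1, 68 and 40, with a median of -1.04. Against naive B cells the medians of complexes I to V became -0.40, -0.67, -0.31, -0.37 and -0.40, and the log2 ratios of their summed TPM -0.55, -1.39, -0.45, -0.78 and -0.71. Among the named members called with Ig genes left out, the log2 changes that turned were Atp5a1 -0.72, Atp5b -0.80, Atp5c1 -0.75, Atp5d -0.96, Atp5e -0.19, Atp5g2 -0.76, Atp5k -0.024, Cox4i1 -0.45, Cox6b1 -0.32, Cox6c -0.23, Cox7b -0.40, Cox8a -0.64, Ndufb8 -0.045, Ndufc2 -0.74, Ndufs3 -0.20, Ndufs8 -0.50, Ndufv2 -0.91, Sdhb -0.56 and Sdhd -0.79. Against NP+ B cells the medians of complexes I, III and V became -1.01, -0.88 and -0.99, and the log2 ratios of the sums of complexes I, III, IV and V -1.10, -1.03, -1.42 and -1.29. There, of the members called, Atp5e turned to -0.80, Atp5g3 -0.30, Atp5j2 -0.34, Cox6a1 -0.21, Cox6b1 -0.98, Cox7a2 -0.38, Ndufa4 -0.12, Ndufb11 -0.16, Ndufc1 -0.84, Ndufs3 -0.54, Ndufs6 -0.20, Sdhc -0.074, Uqcr11 -0.26 and Uqcrq -0.090, and members that had been higher without a call fell, Atp5d by 1.07, Atp5g2 by 0.98, Atp5k by 0.94, Cox6c by 1.07, Ndufb8 by 1.13, Ndufs7 by 1.07, Ndufs8 by 1.16 and Ndufv1 by 1.14.

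Median-of-ratios scaling moved the median of all genes by 0.24, 0.52 and 0.27 in the 3 comparisons (NP-specific against naive, plasma against naive, plasma against NP+ B cells). The members' medians were then 0.86, 1.37 and 0.44, with 23 and 54 past both thresholds in the first pair and 1 and 4 lower in the pair with plasma cells. Quantile normalization moved the median of all genes by 0.40 and 0.30 in the plasma cell comparisons. It gave medians of 0.47 and 0.54 in the first pair, 3 members lower and 1 past both thresholds in NP+ B cells, 18 past both in plasma against naive B cells, and 16 lower and 7 past both in plasma against NP+ B cells, and turned Atp5d (-0.12, plasma against naive) and Cox6b1 (-0.093, plasma against NP-specific). The median in plasma against naive B cells was 0.95 with estimated reads and 0.95 with the authors' log2 values, and without a filter 2 members were lower in NP+ B cells. Leaving out each library in turn gave 4 to 8 members past both thresholds in NP-specific against naive B cells, 8 without NP-specific replicate 2. The replicate block gave 64, 66 and 34 members higher and 1, 4 and 9 lower in the 3 comparisons. Of 9 libraries, 2 were closest to their own number, which cannot show whether libraries of the same number came from the same mouse. The causes of these differences were not tested. The 5 untested members reached at most 19.6 estimated reads in a library, where low expression and limited depth cannot be told apart.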

Other observations

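Genes that bring proteins and metabolites into mitochondria were mostly higher in NP+ B cells than in naive B cells or plasma cells. Of 16 such genes, 10 rose and 6 did not pass from naive to NP+ B cells by limma, 2 rose and 6 fell from naive B cells to plasma cells, and 13 fell and 3 did not pass from NP+ B cells to plasma cells (2 of them by over 2-fold). Among all tested genes 18.6% rose and 23.5% fell, 18.2% rose and 42.2% fell, and 15.7% rose and 38.1% fell in the same comparisons. Without plasma cell replicate 3, 2 of the 16 rose and 4 fell against naive B cells and 13 fell against NP+ B cells. Slc25a4, an exchanger of ADP and ATP, measured 76.8, 83.5 and 77.3 TPM in naive B cells, 240, 243 and 262 TPM in NP+ B cells and 59.6, 72.6 and 61.1 TPM in plasma cells. The NP-specific libraries lay above all others (1.64 ± 0.10 above naive B cells by limma, adjusted p = 1.9e-06, and -1.94 ± 0.10 in plasma against NP+ B cells, adjusted p = 6.7e-08). Vdac3, a pore of the outer membrane, changed by 1.23 ± 0.11 and -1.29 ± 0.12 in the same comparisons. These values are from the table without Ig genes and were chosen after they were seen. With Ig genes kept all 16 genes fell in both plasma cell comparisons, as did 76.4% and 71% of all tested genes. Under median-of-ratios scaling 7 rose against naive B cells and 7 fell against NP+ B cells, as did 27.9% and 26.9% of all tested genes.

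Of 12 genes of coenzyme Q synthesis, which makes the ubiquinone that complexes I and II reduce, 3 rose and 1 fell in NP+ B cells, and 3 rose and 4 fell in plasma cells, both against naive B cells. From NP+ B cells to plasma cells 2 rose and 6 fell. The shares of all tested genes that rose in these 3 comparisons were 18.6%, 18.2% and 15.7%. Those that fell were 23.5%, 42.2% and 38.1%. Without plasma cell replicate 3, 3 rose and 3 fell against naive B cells and 2 rose and 5 fell against NP+ B cells. Against naive B cells 9 fell with Ig genes kept (76.4% of all tested genes), and 4 rose and 2 fell under median-of-ratios scaling (27.9% and 22.3%).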
